A study of Mus musculus with 12 samples.

Results

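The comparison of glucocorticoid receptor knockout with wild type under dexamethasone (Dex) set 3 libraries of T cells labelled as receptor knockout against 3 libraries of wild-type T cells, all treated with the hormone. These 6 of the series' 12 libraries were chosen by the labels alone, as those of Dex-treated cells of either genotype, and every peak of the joint table entered. Chromatin accessibility was measured by ATAC-seq, in which a transposase cuts open DNA and the cuts are counted by position. Naive CD4+ T cells from mice on the C57/B6 background, wild type (WT) or labelled as a conditional knockout (cKO) of the receptor, were turned in culture into Th17Hom cells, a homeostatic form of the Th17 helper subset. They were then kept for 2 days with Dex, or without it in the other 6 libraries, which are called control. Each library was made from 6000 sorted cells and amplified for 16 PCR cycles. The sources used here name neither the promoter that drives the recombinase nor the deleted part of the gene, the Dex concentration or the mice's ages. Those sources do not tell either if a group's 3 libraries trace back to different mice or dishes. The p-values therefore measure only the spread between libraries, which may be technical.

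The glucocorticoid receptor is a hormone-activated transcription factor. Bound by cortisol, corticosterone or a synthetic agonist such as Dex, it leaves its chaperones in the cytoplasm, enters the nucleus and binds DNA, often as a dimer on a palindrome of a short motif, and it also acts through contacts with other factors such as AP-1 and NF-kB. Bound enhancers commonly become more accessible, and in T cells the hormone is known for damping inflammatory cytokine genes and for promoting death or quiescence. Comparing genotypes with the hormone present asks which sites differ in openness when the receptor is missing.

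Promoters were a small part of the peaks that differed between genotypes, and their sequences are shown for the 5 genes to which the text returns: Rhoh, whose promoter peak differed most, Tsc22d3, the best-known receptor target among them, and the 3 whose window holds a searched motif. Each line gives the 250 bases before the gene's start, 5′ to 3′ on the gene's strand, from RefSeq (GRCm38.p6, the assembly also called mm10). Capitals mark a motif match on either strand.
Rhoh (chr5:65863334-65863583, plus strand): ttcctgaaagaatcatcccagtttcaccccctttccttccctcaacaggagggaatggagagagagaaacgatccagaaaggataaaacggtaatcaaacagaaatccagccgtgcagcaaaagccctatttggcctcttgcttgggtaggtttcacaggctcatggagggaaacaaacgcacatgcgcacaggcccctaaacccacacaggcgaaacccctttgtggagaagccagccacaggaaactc
Tsc22d3 (chrX:140542669-140542918, minus strand): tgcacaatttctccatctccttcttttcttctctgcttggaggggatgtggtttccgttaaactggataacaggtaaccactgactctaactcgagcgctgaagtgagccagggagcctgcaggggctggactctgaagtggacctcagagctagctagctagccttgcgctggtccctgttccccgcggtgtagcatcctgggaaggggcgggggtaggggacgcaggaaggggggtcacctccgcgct
Gucy1b1 (chr3:82074712-82074961, minus strand): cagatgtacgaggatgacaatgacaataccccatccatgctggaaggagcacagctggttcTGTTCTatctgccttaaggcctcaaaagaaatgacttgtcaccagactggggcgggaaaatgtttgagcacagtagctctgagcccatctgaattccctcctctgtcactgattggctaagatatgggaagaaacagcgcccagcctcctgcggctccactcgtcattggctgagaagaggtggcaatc
Zfp658 (chr7:43562120-43562369, plus strand): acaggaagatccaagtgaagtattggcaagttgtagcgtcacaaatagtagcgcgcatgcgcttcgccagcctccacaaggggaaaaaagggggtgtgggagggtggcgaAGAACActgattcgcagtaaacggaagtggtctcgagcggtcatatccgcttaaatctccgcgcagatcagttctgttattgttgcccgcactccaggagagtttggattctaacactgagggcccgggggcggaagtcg
Arap2 (chr5:62766178-62766427, minus strand): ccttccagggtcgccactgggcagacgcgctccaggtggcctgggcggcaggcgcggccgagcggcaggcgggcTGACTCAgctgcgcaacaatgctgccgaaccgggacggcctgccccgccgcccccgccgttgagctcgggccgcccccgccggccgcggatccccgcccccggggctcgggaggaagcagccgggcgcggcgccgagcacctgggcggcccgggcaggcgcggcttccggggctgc
Of the 264 peaks that were lower in cKO, 11 (4.17%) overlapped a RefSeq promoter, against 5.39% of all tested peaks, and 0 of the 81 higher peaks did. The 11 peaks covered 12 promoter windows, because Nln and Sgtb share one. The receptor palindrome, with arms AGAACA and TGTTCT 3 bases apart, and a looser form, with arms GNACA and TGTNC 3 bases apart, which matches every copy of the first, were found in 0 of the 12 windows. They occur in 0.00941% and 0.357% of the 21263 protein-coding windows of the same length. The single arm TGTTCT, part of the palindrome, lay in 2 of the 12 windows (Gucy1b1 and Zfp658) and in 13.7% of all windows. The AP-1 motif TGANTCA lay in 1 of the 12 (Arap2) and in 6.13% of all. Both strands were searched, and a match is a string of letters, not a measured binding site.

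Count totals over the peaks lay between 17229355 and 19384292 for WT Dex and between 17828441 and 25081591 for cKO Dex. The share of counts held by the strongest 10% of peaks was 63.5%, 63.4% and 60.8% for WT Dex and 61.05%, 61.6% and 58.1% for cKO Dex, so replicate 3 was the lowest of each group. The 12 T cell identity genes carried 278 tested peaks with a median mean level of 1.93 CPM, which are counts divided by the scaled library size, and the medians were 1.07, 1.38, 1.13 and 0.991 CPM for genes of B cells, of CD8 T and NK cells, of myeloid and dendritic cells and of erythroid and stromal cells. None of these 4 lists had a called peak (adjusted p under 0.05) under the main scaling. Pecam1 of the stromal list was called higher in cKO with total counts, loess offsets, quantile normalisation, the share above as a covariate and a minimum count of 50, and Ebf1 of the B cell list with total counts, the covariate and that minimum. Summed over their peaks they held 387 to 412, 252 to 258, 334 to 355 and 344 to 360 CPM in WT Dex, and 399 to 457, 230 to 256, 328 to 346 and 328 to 360 CPM in cKO Dex. At Nr3c1, the receptor gene itself, 0 of 24 tested peaks passed the test. Its peak with the smallest p, inside the gene at 39457699 to 39458289 of chromosome 18 (mm10), read 2.77, 2.62 and 3.12 CPM with WT cells and 4.27, 4.05 and 4.38 CPM with cKO cells (edgeR adjusted p = 0.38). Openness measures neither transcript nor protein, and which part was deleted is unknown here, so the genotype labels are not checked by these values.

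Under the main scaling, called TMM, sites that were less open in cKO outnumbered those that were more open, a balance that 4 other settings turned. Of 202587 tested peaks, 345 (0.170%) passed the edgeR test at an adjusted p under 0.05 and are referred to as called. Of these, 264 (0.130%) were lower in cKO and 81 (0.0400%) were higher. The median log2 difference was -0.81 over the lower peaks and 0.89 over the higher ones, and 78 and 29 of them differed at least 2-fold. Called peaks were assigned to 242 genes by position, which need not be the genes they regulate. In 344 of the 345 the cKO and WT Dex libraries did not overlap. Ranges of 3 against 3 libraries lay apart at 6.20% of all tested peaks with cKO lower and at 6.48% with cKO higher. The exception was a peak near Ceacam15, at 6.56, 12 and 10.5 CPM in WT and 5.04, 6.85 and 4.7 CPM in cKO. Before adjustment, 16909 peaks (8.35%) had a p under 0.05. In a bulk library, fewer cells with an open site and a site less open in each cell cannot be told apart.

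**Figure D1:**
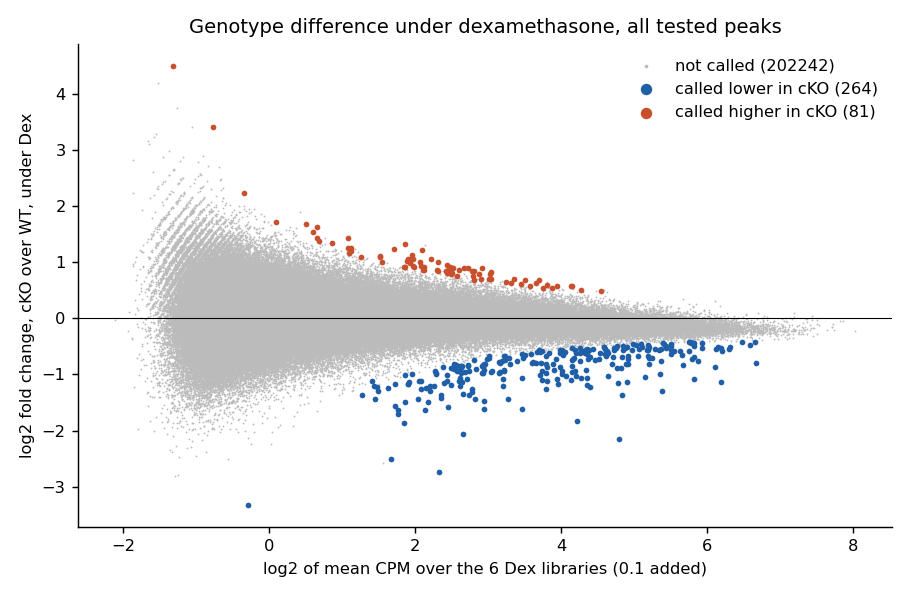
Each point is a tested peak, with the log2 of its mean CPM over the 6 Dex libraries (0.1 added) on the x axis and the log2 fold change of cKO over WT under Dex on the y axis. The 264 called lower peaks reach to the strongest sites, and the 81 called higher ones lie mostly at weaker sites than these. The cloud of uncalled peaks bends slightly below 0 at the right.

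The balance of directions moved with the scaling, while the direction of single called peaks did not. With TMM 76.5% of called peaks were lower in cKO. Scaling by total counts gave 894 calls, 43.6% of them lower, loess offsets gave 989 (46.7%) and quantile normalisation gave 719 (43.0%). Adding the share of counts in the strongest peaks as a covariate gave 1797, 32.0% of them lower. Of the 264 lower and 81 higher peaks, 200 and 66 kept call and direction under each of these 4 settings, and 0 changed sign in any of them. Strong peaks as a whole sat lower in cKO: among the 20259 peaks with the highest mean level, from 12.8 CPM up, the median log2 was -0.12 and 79.6% of values were negative, against a median of 0.09 in the 20259 weakest. The same medians in the control libraries were -0.13 and 0.20. The count of calls fell to 152, 204 and 195 without WT Dex replicate 1, WT Dex replicate 2 or cKO Dex replicate 1. Without cKO Dex replicate 3, which had the lowest share of counts in strong peaks of the 6 Dex libraries, 54.9% of 428 calls were lower.

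Called lower peaks were wide and strong. Their median width was 911 bases, against 577 for higher peaks and 378 for all tested peaks. Their median level was 19.4 CPM in WT Dex and 10.8 CPM in cKO Dex, while WT and cKO control cells had 9.97 and 9.11 CPM, so the WT Dex libraries stood apart from the other 3 groups. Higher peaks were lowest in WT Dex, at 3.45 CPM, while cKO Dex, WT control and cKO control had 6.43, 5.56 and 5.98 CPM. The Dex libraries chose these peaks, so their medians are a description. Of the lower peaks 50% and 61.7% of the higher ones lay within a gene, against 58.3% of all tested peaks, and 15.2%, 4.94% and 10.3% had no protein-coding gene within 50 kb.

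The peak with the smallest p lay near nonagouti (symbol a), whose product blocks melanocortin receptors, on chromosome 2 from 155051715 to 155053366 and 1528 bases outside the gene. Its levels were 49.0, 44.1 and 42.2 CPM in WT and 8.91, 10.2 and 11.6 CPM in cKO under Dex. The log2 difference was -2.14 ± 0.13 (SE, n = 3 per group, adjusted p = 5.21e-18), a 4.42-fold higher level in WT. Both control groups lay below the cKO Dex libraries, between 3.81 and 6.52 CPM. Within cKO the Dex libraries were higher than control at this peak (log2 0.88 ± 0.15, adjusted p = 0.0145), a contrast that shares the cKO Dex libraries, and within WT the value was 3.18 ± 0.15.

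A peak between genes near Cxcr4, the receptor for the chemokine CXCL12 that steers lymphocyte homing (chromosome 1, 128614316 to 128615908), stood at 60.8, 57.7 and 58.9 CPM in WT and 22.7, 27.5 and 22.0 CPM in cKO. Its log2 difference was -1.30 ± 0.11 (adjusted p = 1e-12). The lowest WT library was above 2 times the highest cKO library, and within cKO Dex was higher than control (0.78 ± 0.12, adjusted p = 0.000695). A peak near Klf9, a zinc finger factor induced by glucocorticoids in many tissues (chromosome 19, 23133843 to 23136594), stood at 84.5, 78.9 and 65.6 CPM in WT and 39.3, 36.4 and 31.8 CPM in cKO (log2 -1.09 ± 0.10, adjusted p = 9.02e-11). Here cKO Dex libraries were near the control level, which ran from 28.9 to 33.6 CPM over both genotypes.

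Several leading sites had no gene near them. The peak on chromosome 6 from 31345099 to 31346034 stood at 33.3, 28.2 and 25.3 CPM in WT and 7.73, 9.13 and 7.45 CPM in cKO (log2 -1.83 ± 0.14). On chromosome 17, from 84115758 to 84117588, the levels were 103, 107 and 91.5 CPM against 44.9, 49.9 and 42.3 CPM (log2 -1.14 ± 0.10). On chromosome 19, from 23056894 to 23057202, they were 11.7, 9.6 and 8.73 CPM against 1.99, 2.63 and 2.59 CPM (log2 -2.06 ± 0.21). None of the 3 had a protein-coding gene within 50 kb, and in none did the genotypes overlap. The chromosome 6 peak was also higher with Dex than in control within cKO (1.09 ± 0.17, adjusted p = 0.000695). The steepest loss among the leading 12 was within Cab39l, a scaffold protein of the kinase LKB1, where WT held 11.2, 6.75 and 7.77 CPM and cKO 1.38, 0.862 and 1.58 CPM (log2 -2.75 ± 0.27). That peak is narrow, from 59506209 to 59506541 on chromosome 14, and the cKO Dex libraries were close to the control ones, which ran from 0.33 to 1.55 CPM.

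The other 5 leading lower peaks covered unrelated functions. They were within Ppp1r21, a protein of early endosomes (log2 -1.37 ± 0.12), near Ube2s, a ubiquitin-conjugating enzyme of the anaphase-promoting complex (-1.62 ± 0.16), near Mchr1, the melanin-concentrating hormone receptor (-1.16 ± 0.11), within Sae1, a subunit of the SUMO-activating enzyme (-1.22 ± 0.13), and near Mmp25, a membrane-anchored metalloproteinase (-0.99 ± 0.11). Their WT Dex libraries ranged from 15.9 CPM at Ube2s to 57.7 CPM at Mmp25, and the cKO Dex libraries from 4.65 to 28.2 CPM at the same 2 sites. All 12 leading lower peaks kept their call in each alternative in which they were tested.

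**Figure D2:**
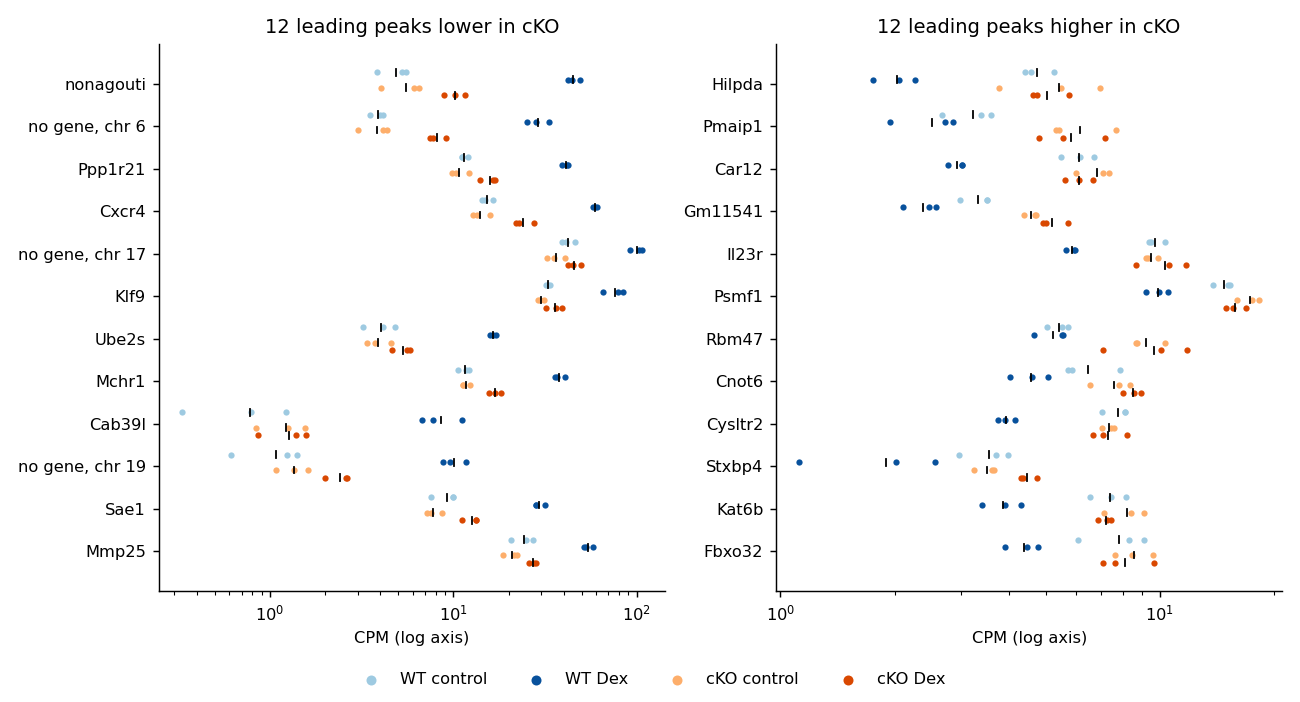
Each dot is the CPM of 1 library on a log axis, coloured by group, with a black tick at the group mean, for the 12 lower (left) and 12 higher (right) peaks with the smallest p outside the chromosome 5 run. At the lower peaks the WT Dex libraries stand to the right of the other groups, as at Cxcr4 (57.7 to 60.8 CPM), and at most of the higher peaks they stand to the left, as at Car12 (2.77 to 3.01 CPM).

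Higher peaks were weaker sites than the lower ones, though above the medians of all tested peaks, and their leading differences were near 2-fold. The smallest p belonged to a peak near Hilpda, a hypoxia-inducible brake on lipid droplet breakdown (chromosome 6, 29266612 to 29267256), at 2.27, 2.06 and 1.76 CPM in WT and 4.64, 5.77 and 4.75 CPM in cKO (log2 1.32 ± 0.22, adjusted p = 0.000277). A peak near Car12, a carbonic anhydrase of the cell surface, stood at 2.77, 3.01 and 3.01 CPM in WT and 5.61, 6.68 and 6.13 CPM in cKO (log2 1.06 ± 0.19). At both sites the WT Dex libraries were the low group, with the cKO Dex libraries within or beside the control range. Within Il23r, the receptor chain through which IL-23 sustains inflammatory Th17 cells (chromosome 6, 67424822 to 67425346), WT held 5.93, 5.97 and 5.67 CPM and cKO 11.7, 10.6 and 8.66 CPM (log2 0.82 ± 0.15, adjusted p = 0.00178). The Il23r call was lost without cKO Dex replicate 1 (adjusted p = 0.0719).

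Some higher peaks also stood higher in cKO without Dex. Near Pmaip1, which encodes the death promoter Noxa, levels were 1.95, 2.85 and 2.72 CPM in WT Dex and 4.8, 7.19 and 5.55 CPM in cKO Dex, and the log2 difference was 1.21 ± 0.21 with Dex and 0.91 ± 0.21 in control. Within Rbm47, an RNA-binding protein, the values were 0.89 ± 0.17 with Dex and 0.76 ± 0.17 in control. That peak is 1 of the 3 called higher beside the chromosome 5 run described below. The Rbm47 call was lost without cKO Dex replicate 2 (adjusted p = 0.0936). The remaining leading higher peaks were Gm11541 (1.13 ± 0.21), Psmf1, a proteasome inhibitor (0.68 ± 0.13), the deadenylase Cnot6 (0.89 ± 0.17), the leukotriene receptor Cysltr2 (0.89 ± 0.17), Stxbp4 (1.24 ± 0.24), the histone acetyltransferase Kat6b (0.89 ± 0.17) and the ubiquitin ligase Fbxo32 (0.89 ± 0.17). Of these, 5 lost their call without 1 library: Psmf1 without cKO Dex replicate 1 (0.0569), Cysltr2 and Fbxo32 without cKO Dex replicate 2 (0.0524 and 0.101), Stxbp4 and Fbxo32 without WT Dex replicate 2 (0.129 and 0.0799), and Kat6b without WT Dex replicate 1 (0.111).

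Genes known as receptor targets were called mostly in the lower direction, except with the strong-peak covariate. Of 30 genes in that list 29 had a tested peak, 8 had a lower peak (Cxcr4, Il7r, Klf13, Klf9, Tsc22d3, Txnip, Zbtb16 and Zfp36l2), 1 a higher one (Fkbp5), and 21 no called peak. Of the list's 695 peaks 1.73% were called, against 0.170% of all, and their median log2 was -0.08 against -0.001 over all tested peaks. The list was chosen with earlier results of these data known, so its share is a description. With total counts and loess offsets the counts were 10 lower and 1 higher, with quantile normalisation 8 and 1, and with the strong-peak share as a covariate 8 and 8, so the list had no leading direction in that last setting; Cxcr4 and Il7r then had called peaks in both directions.

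Near Il7r, through which T cells receive IL-7 survival signals, WT Dex held 17.8, 16.7 and 17.5 CPM and cKO Dex 8.7, 9.39 and 8.98 CPM (log2 -0.94 ± 0.14, adjusted p = 2.02e-05). Neither group spread by more than 1.1 CPM. Txnip, which binds thioredoxin and restrains glucose uptake, had 3 called peaks on chromosome 3, between 96551008 and 96562750. The strongest stood at 27.2, 23.0 and 21.2 CPM in WT and 12.4, 13.7 and 10.9 CPM in cKO (log2 -0.95 ± 0.14), and the other 2 had log2 values of -0.98 ± 0.17 and -0.94 ± 0.18. Near Zfp36l2, an RNA-binding protein that speeds the decay of mRNAs, levels were 64.7, 62.9 and 49.8 CPM against 38.2, 42.6 and 37.9 CPM (log2 -0.58 ± 0.10). Within Zbtb16, which encodes the factor PLZF, they were 5.04, 4.91 and 5.16 CPM against 2.64, 1.81 and 2.43 CPM (-1.13 ± 0.23). Within Klf13 they were 25.0, 25.3 and 26.0 CPM against 16.7, 17.9 and 17.9 CPM (-0.54 ± 0.11). Calls were lost at Zfp36l2 without WT Dex replicate 1 (adjusted p = 0.0794), at Zbtb16 without WT Dex replicates 1 and 2 and cKO Dex replicate 2 (0.0676 to 0.132), and at Klf13 without WT Dex replicates 1 and 2 and cKO Dex replicate 1 (0.0863 to 0.176). With DESeq2 no peak of Zbtb16 was called.

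The promoter peak of Tsc22d3, which encodes the anti-inflammatory mediator GILZ and whose upstream sequence is printed above, ran from 140541472 to 140543605 on chromosome X. It stood at 46.8, 48.4 and 50.2 CPM in WT Dex and 36.2, 39.5 and 31.2 CPM in cKO Dex, 1.36-fold higher in WT (log2 -0.44 ± 0.10, adjusted p = 0.0421). The call was near the threshold and was lost in 7 alternatives, at adjusted p from 0.05 to 0.209: with the 6 Dex libraries alone, with no filter on low counts, and without any 1 of the 6 Dex libraries except cKO Dex replicate 2. Of its 34 tested peaks, 7 had an unadjusted p under 0.05 and all 7 of those were lower in cKO.

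Fkbp5, a co-chaperone that lowers the receptor's hormone affinity and a classical induced target, went the other way at a peak within the gene (chromosome 17, 28431937 to 28432819). WT Dex held 12.1, 11.9 and 11.7 CPM and cKO Dex 18.5, 17.3 and 16.2 CPM (log2 0.54 ± 0.12, adjusted p = 0.0343). The control libraries gave a similar value, 0.41 ± 0.12. The call was lost with no filter on low counts and without any 1 of the 6 Dex libraries except cKO Dex replicate 3 (0.0512 to 0.242), and the other 41 of its 42 tested peaks were not called. Fkbp5 was also the single called gene of the 17 in the list of receptor, chaperones and partners. No peak of Per1, Dusp1 or Sgk1 was called, and the 1 of each with the smallest p differed by -0.27 ± 0.09, -0.44 ± 0.12 and -0.60 ± 0.15 on the log2 scale, with adjusted p of 0.317, 0.152 and 0.0882. That Sgk1 peak passed with loess offsets (0.0257), DESeq2 (0.0268) and a minimum count of 50 (0.0157), and the gene also had a called lower peak with total counts and with voom and quality weights. The Dusp1 peak passed with the minimum of 50 (0.0207), and the Per1 peak with it (0.0202) and with quality weights (0.0441).

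**Figure D3:**
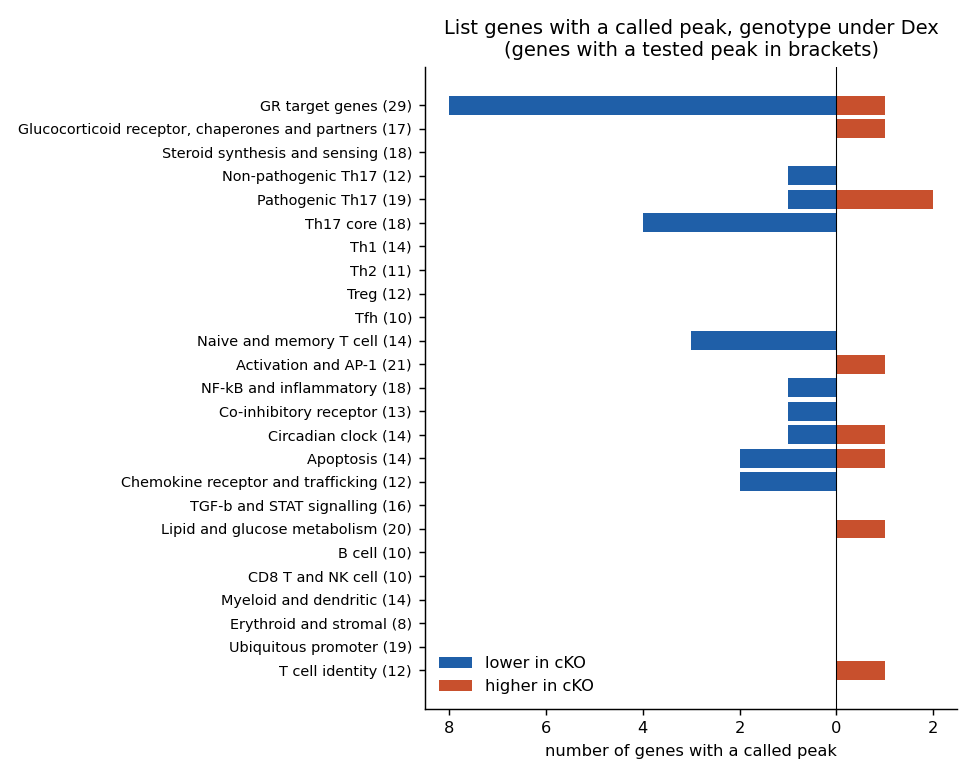
Bars give the number of genes in each list with at least 1 called peak, to the left for lower and to the right for higher in cKO, with the number of genes that had a tested peak in brackets. Receptor target genes have the longest bar, 8 lower and 1 higher, and 11 lists have none.

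Across the 25 lists 26 of 346 genes with a tested peak had a called one, 19 lower and 7 higher. That is 7.51%, against 1.39% of all 17348 genes. List genes carried 21.1 tested peaks each and all genes 10.5, and 0.452% of the peaks of list genes were called, against 0.166% of all peaks assigned to a gene. The lists were chosen with earlier results of these data known, so these shares are a description and not an independent measure.

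In the Th17 lists called genes went both ways. Of 18 Th17 core genes 4 had a lower peak and 0 a higher one. The peak near Tmem176b, a membrane protein linked to Th17 cells, stood at 24.5, 19.2 and 20.4 CPM in WT Dex and 9.48, 9.69 and 9.19 CPM in cKO Dex (log2 -1.17 ± 0.14, adjusted p = 1.13e-07), 30.2 kb outside the gene. The others were Nfkbiz, a nuclear co-factor of NF-kB (7.56, 9.54 and 9.19 against 4.31, 4.74 and 3.33 CPM, -1.08 ± 0.18), Hif1a, the hypoxia response factor (-0.79 ± 0.14), and Il1r1, the IL-1 receptor (-0.86 ± 0.17). Of 12 non-pathogenic Th17 genes 1 was lower, the anti-inflammatory cytokine Il10, at 25.5, 22.6 and 24.3 CPM in WT and 16.5, 17.0 and 14.6 CPM in cKO (log2 -0.59 ± 0.12). Of 19 pathogenic Th17 genes Il1r1 was lower, and Il23r and Bhlhe40, a factor needed for inflammatory cytokine output, were higher. Bhlhe40 stood at 5.99, 8.09 and 7.66 CPM in WT and 12, 11.4 and 10.9 CPM in cKO (log2 0.66 ± 0.15, adjusted p = 0.0289).

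The Th17 counts shifted with scaling, test, filter and single libraries. The core list gained 1 higher gene, Rora, with total counts, loess offsets, quantile normalisation and DESeq2. Quality weights, the replicate number as a block and the fit without cKO Dex replicate 3 also called Rora higher. With a minimum count of 50 the core list had 7 lower and 3 higher genes, Rora among the higher. With the strong-peak covariate it had 3 lower and 5 higher genes, so the larger side changed. The non-pathogenic list had 1 lower and 2 higher genes with total counts, and 1 and 4 with that minimum. With loess offsets and with quantile normalisation it had 1 and 1. With the covariate the non-pathogenic list had 2 lower and 5 higher genes and the pathogenic list 0 and 4. The Il1r1 peak lost its call in that setting, where another peak of the gene was called higher, and without WT Dex replicates 1 and 2 and cKO Dex replicate 1 (0.0612 to 0.116), Hif1a without WT Dex replicate 1 (0.0792), Il10 without WT Dex replicate 1 and cKO Dex replicates 1 and 3 (0.051 to 0.164), and Bhlhe40 without WT Dex replicates 1 and 3 and cKO Dex replicates 1 and 2 (0.0527 to 0.433). The signature cytokines Il17a and Il17f and the transcription factor gene Maf were not called. Their peaks with the smallest p had log2 values of 1.01 ± 0.30, 0.61 ± 0.21 and 0.90 ± 0.24, with adjusted p of 0.205, 0.316 and 0.0983. The Maf peak passed with total counts (0.0332), the strong-peak covariate (0.0143), a minimum count of 50 (0.012) and without cKO Dex replicate 3 (0.0493). The Il17f peak passed with that minimum (0.0498), and with the covariate the gene had a called higher peak.

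Genes of quiescent T cells and of cell movement were lower where called under the main scaling, while other settings also called some higher. Of 14 naive and memory genes 3 had a lower peak and 0 a higher one: Il7r, Foxp1, a factor that keeps T cells quiescent (33.8, 38.3 and 32.5 CPM in WT Dex, 21.4, 24.3 and 19.1 CPM in cKO Dex, log2 -0.69 ± 0.11), and S1pr1, the receptor for exit from lymph nodes (15.1, 14.3 and 11.9 against 9.11, 8.53 and 8.61 CPM, -0.65 ± 0.14). Foxp1 carries 211 tested peaks, of which 1 was called. Of 12 chemokine receptor and trafficking genes the lower ones were Cxcr4 and S1pr1. S1pr1 lost its call with the strong-peak covariate and without WT Dex replicates 1 and 2 and cKO Dex replicates 1 and 2 (0.0587 to 0.252). With that covariate the naive and memory list turned to 2 lower and 8 higher genes and the trafficking list to 1 and 2. Satb1 was also called higher with total counts, loess offsets, quantile normalisation, DESeq2, the 6 Dex libraries alone and a minimum count of 50, Bach2 with loess offsets, quantile normalisation and that minimum, and Ccr2 with total counts, loess offsets and that minimum, which called a Cxcr4 peak higher too.

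Apoptosis genes went both ways. Of 14, 2 had lower peaks and 1, Pmaip1, a higher one. Bcl2l11, which encodes the death promoter Bim, had 2 lower peaks, the first at 21.4, 17.2 and 22.2 CPM in WT Dex and 8.91, 13.4 and 11.1 CPM in cKO Dex (log2 -0.86 ± 0.14, adjusted p = 0.000109) and the second at a log2 of -1.26 ± 0.22. Its antagonist Bcl2 differed by -0.42 ± 0.09 (adjusted p = 0.0301) at 1 of 126 peaks, a call lost without any 1 of the Dex libraries except WT Dex replicate 3 (0.0525 to 0.382). Death-promoting genes lay on both sides of the comparison. With the strong-peak covariate 2 genes were lower and 3 higher, with loess offsets 2 and 2.

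Other lists held single genes. Prdm1, which encodes the repressor Blimp-1, was the 1 called gene of 13 co-inhibitory receptor genes, at 4.54, 3.57 and 3.52 CPM in WT Dex and 1.71, 1.46 and 1.06 CPM in cKO Dex (log2 -1.44 ± 0.28). Npas2, a partner of the clock activator BMAL1, was lower among 14 clock genes (13.6, 12.7 and 9.98 against 6.59, 6.16 and 6.44 CPM, -0.91 ± 0.16), while Bhlhe40, a clock repressor in that list, was higher. Higher single genes were Nfatc2, a factor activated by calcium signals (0.64 ± 0.13), Pparg, a lipid-sensing nuclear receptor (0.50 ± 0.12), and Lck, the kinase next to the T cell receptor (0.94 ± 0.21). Nfkbiz was the 1 called gene of 18 NF-kB and inflammatory genes. No peak of Prdm1 was called with DESeq2. Prdm1 also lost its call with the strong-peak covariate (0.0663) and without WT Dex replicate 1 (0.108), and Nfatc2 without WT Dex replicates 1 and 2 and cKO Dex replicate 2 (0.0802 to 0.141). Lck did so without WT Dex replicates 1 and 3 and cKO Dex replicates 1 and 2 (0.0911 to 0.252), and Pparg in 8 alternatives (0.0507 to 0.318), among them 5 single libraries, WT Dex 1, 2 and 3 and cKO Dex 1 and 2. No gene was called among 14 Th1, 11 Th2, 12 Treg, 10 Tfh, 18 steroid synthesis and sensing, 16 TGF-b and STAT, or 19 ubiquitous promoter genes.

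Called peaks gathered at some genes, which were picked out after their values were seen. Of the 242 genes 38 had at least 2 called peaks, 11 at least 3 and 4 at least 4. Outside the chromosome 5 run the largest numbers were 4 each at Neb, which encodes the muscle protein nebulin, and at Bcas3. The Neb peaks spread over a short stretch of chromosome 2, from 52304449 to 52316369, with log2 values from -1.59 to -0.68. The first of them stood at 9.27, 7.81 and 7.03 CPM in WT Dex, 2.11, 2.97 and 2.96 CPM in cKO Dex, and means of 0.87 and 0.942 CPM in WT and cKO control. Khdc1a had 3 called among 7 tested peaks, with log2 values of -1.62 ± 0.19, -1.26 ± 0.15 and -1.18 ± 0.24. Dock10, Gramd4, Kbtbd11 and Maml3 had 3 lower peaks each, and Zfyve28 had 3 higher ones, with log2 values of 0.71, 0.93 and 0.79.

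A stretch on chromosome 19 was lower over many neighbouring peaks, also singled out after the values were seen. From 53836955 to 53919945, 28 tested peaks in a row had a negative log2 under Dex, over the region of Rbm20, Gm30990 and Pdcd4, an inhibitor of translation. The sums of CPM over them were 334, 318 and 287 with WT and 223, 255 and 216 with cKO cells under Dex, a ratio of 0.738. In the control libraries, which did not choose the stretch, the sums ran from 203 to 221 in WT and from 197 to 217 in cKO, a ratio of 0.984. Of the 28 peaks 3 were called, led by 1 within Gm30990 at 68.4, 66.5 and 58.7 CPM against 34.6, 39.3 and 35.3 CPM (log2 -0.83 ± 0.10, adjusted p = 1.61e-07).

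A block on chromosome 5 was lower in cKO with and without Dex. The longest run of consecutive peaks with a negative log2 in the control libraries held 26 peaks, from 65919085 to 66004802. Read in the Dex libraries, its cKO to WT ratio of summed CPM was 0.511, against 0.503 in the control libraries that chose it, and leaving out any 1 Dex library gave 0.486 to 0.554. Under Dex the run extended to 57 peaks over 160 kb, from 65844768, and covered Rhoh, whose product is needed for T cell receptor signalling, and Chrna9, an acetylcholine receptor subunit. The sums were 356, 367 and 341 CPM in WT Dex and 195, 200 and 166 CPM in cKO Dex (ratio 0.527), and the ratio in control was 0.497. Its 14 called peaks were 8 at Rhoh and 6 at Chrna9. The promoter peak of Rhoh stood at 22.9, 21.7 and 17.3 CPM against 9.68, 9.99 and 9.72 CPM (log2 -1.07 ± 0.13 with Dex and -1.27 ± 0.14 in control). The leading Chrna9 peak, within the gene from 65955246 to 65956339, stood at 41.2, 42.1 and 38.8 CPM against 20.2, 21.2 and 14.3 CPM (log2 -1.13 ± 0.12 with Dex). In the 400 kb to each side, the median log2 of the 150 tested peaks was 0.11, with 3 called higher. Without the 57 peaks 325 peaks were called, 248 lower and 77 higher.

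**Figure D4:**
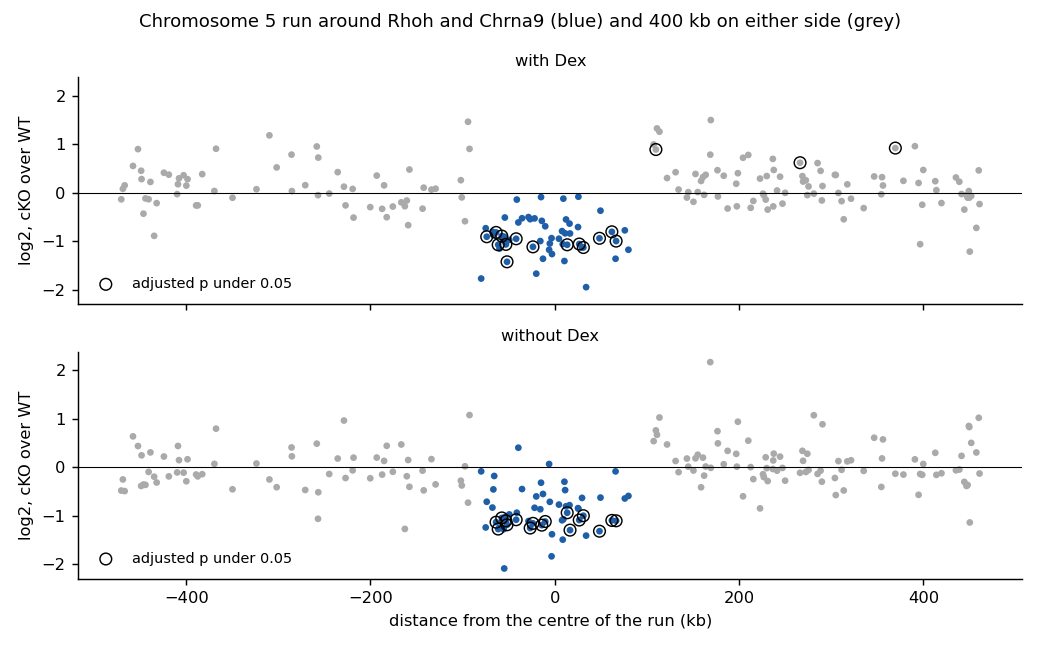
Each point is a tested peak at its distance in kb from the centre of the 57-peak run, with the log2 of cKO over WT on the y axis, with Dex above and without Dex below; blue marks the run, grey the 400 kb on either side, and rings an adjusted p under 0.05. The blue points lie below 0 in both panels apart from 2 in the control panel, and the grey ones scatter around 0.

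The control libraries share no library with the Dex comparison. They measure the genotype difference without Dex, within the same fit of all 12 libraries. Among all tested peaks 21 (0.0104%) were called in control. Of the 345 peaks called under Dex 13 were among them, all 13 in the 57-peak run, and 0 of the others. Of the 250 lower peaks outside the run 148 (59.2%) also had a negative log2 in control, and their median there was -0.06; among all tested peaks 48.4% were negative. In 30 of them (12%) the control libraries of cKO lay below those of WT, against 7.60% of all. Of the 81 higher peaks 53 (65.4%) were positive in control, where their median was 0.11 and the share among all peaks 51.6%, and 14 (17.3%) had separate control ranges in that direction, against 6.91%. Over all 345 the sign was shared at 62.3%. This share was 53.0% without cKO Dex replicate 3 and 74.7% without WT Dex replicate 3. Strong peaks sat slightly lower in cKO in both treatments, as given above. The strongest 10% of all tested peaks had a control median of -0.13, and 132 of the called lower peaks, those of the run included, were among them. The shares among all peaks, 48.4% and 51.6%, were not matched to the level of the called peaks. How much of the shared signs goes with peak level was not tested.

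**Figure D5:**
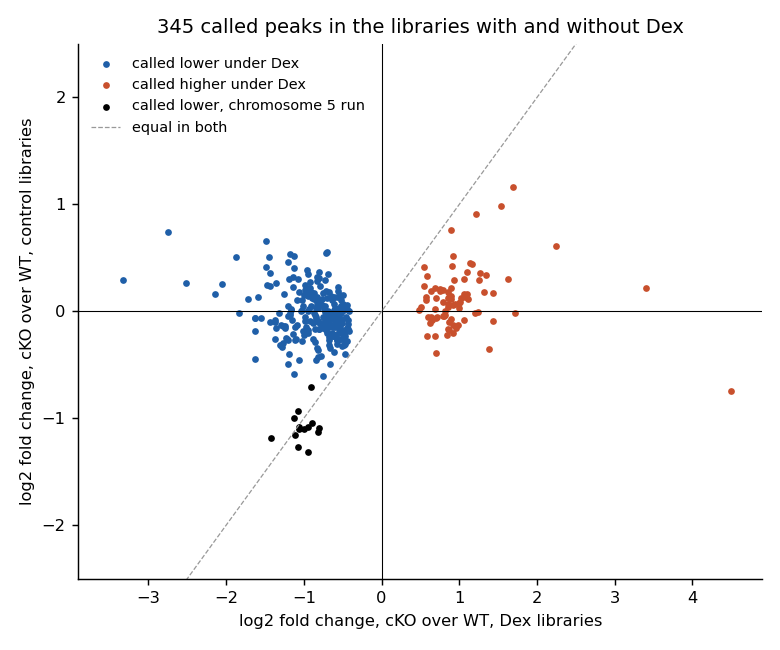
Each point is 1 of the 345 called peaks, with the log2 of cKO over WT in the Dex libraries on the x axis and in the control libraries on the y axis; the dashed line marks equal values. The blue and orange points spread around 0 on the y axis, with medians of -0.06 (lower, outside the run) and 0.11 (higher), and the 14 black points of the chromosome 5 run lie near the dashed line.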

How the data were processed

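ATAC-seq counts over a joint peak set were deposited by the authors as 1 table of whole-number counts for 12 libraries of 4 groups, 3 per group, and its values are not normalized. The submitters' processing notes name the mm10 build, Genrich 0.6.1 and featureCounts 2.1.1, besides Bowtie2 2.3.5, Trimmomatic 0.39, SAMtools 1.3, Picard 2.18.27 and deepTools 3.5.6. The sources used here do not say how the transposase offset and duplicates were handled.

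Of 222105 peaks, 19518 were left out for low counts (edgeR's filterByExpr, minimum count 10 and total 15). The other 202587 were fitted over all 12 libraries with edgeR 4.0.16 (R 4.3.3): TMM scaling, 1 coefficient per group, robust quasi-likelihood F-test, two-sided, 8 residual degrees of freedom, Benjamini-Hochberg adjustment over all tested peaks. CPM are TMM-scaled, and SE is the log2 difference divided by the square root of F. The median biological coefficient of variation was 24.8%. Alternatives used limma 3.58.1 and DESeq2 1.42.0. The scripts were tested on simulated data. A peak's gene is the protein-coding span holding its centre, otherwise the nearest within 50 kb.

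Named outside the chromosome 5 run are the 12 lower and 12 higher called peaks with the smallest p, 1 per gene. Within the 26-peak run chosen in control, the 3 with the smallest p are named. For each list gene with a called peak, the one with the smallest p is named, and a panel of genes is named whatever their call. The Rhoh promoter peak, in the rest of the 57-peak run, belongs to that panel. Members and lists were chosen with earlier results of these data known. Replicate numbers were not used to pair the libraries in the main fit, and the sources do not say if they mark pairs.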

Additional observations from a re-analysis of the deposited data

Results flagged for a closer look

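At 16 of the 58 named peaks the genotype difference itself differed between Dex and control by edgeR's interaction term. The threshold was an adjusted p under 0.05, with adjustment over all tested peaks. The number of all tested peaks that passed is not given here. This contrast uses the same Dex libraries as the comparison above, and the 12 leading lower peaks are among the 16. They and the list-gene peaks were picked by a small p with Dex. That difference is part of the interaction, so their passing is not an independent result. No leading higher peak passed the interaction. The interaction is the log2 of cKO over WT with Dex minus that in control.

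The interaction was -2.31 ± 0.21 near nonagouti (symbol a; adjusted p = 2.12e-10), where the genotype difference was -2.14 with Dex and 0.16 in control. It was -3.49 ± 0.46 within Cab39l, where that difference was 0.74 in control at levels of at most 1.55 CPM. The peaks far from genes gave -1.81 on chromosome 6 (start 31345099), -0.92 on chromosome 17 (start 84115758) and -2.31 on chromosome 19 (start 23056894). The other leading sites gave -1.27 at Ppp1r21, -1.17 at both Cxcr4 and Mchr1, -0.96 at both Klf9 and Sae1, -1.56 at Ube2s and -0.77 at Mmp25.

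Among list genes the interaction was -1.38 ± 0.26 near Nfkbiz, -1.14 ± 0.21 near Tmem176b, -1.03 ± 0.21 near Hif1a and -0.98 ± 0.20 within Bcl2l11. The last had the largest adjusted p of the 16, 0.0396. At Nfkbiz, Hif1a and Bcl2l11 the control difference was positive (0.30, 0.23 and 0.11), and at Tmem176b it was -0.03.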

How the results depend on the processing

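The 345 called peaks became 894 when scaled by total counts, 989 by loess offsets, 719 by quantile normalisation, 1797 with the share of counts in the strongest peaks as a covariate, 656 with DESeq2, 751 with voom and quality weights, and 2467 with a minimum count of 50, which tested 70029 peaks (56.5% of these calls lower). Leaving out 1 Dex library gave 152 to 454 calls. Total counts moved the median of all peaks by 0.075 on the log2 scale. The 26 list genes became 47, 55, 43 and 71 in the 4 scaling settings in that order, 49 with quality weights, 92 with the minimum of 50 and 13 to 27 over the leave-outs. The share of calls with the same sign in control, 62.3%, became 84.9% with the covariate, 72.4% with DESeq2, 70.3% with quality weights, 69.9% with the minimum of 50, and 53.0% to 74.7% over the leave-outs. The causes were not tested.

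Fitting the replicate number as a block gave 1017 calls, 762 lower and 255 higher, with all 345 among them, 54 list genes and a same-sign share of 73.7%. It added calls at Sgk1 and Dusp1 (lower) and at Maf, Satb1 and Pecam1 (higher). Deviations of same-numbered WT and cKO Dex libraries correlated at 0.0973, 0.135 and 0.282, and those of differently numbered ones at -0.224 to 0.103. WT Dex replicate 1 correlated slightly better with cKO Dex replicate 2 (0.103) than with cKO Dex replicate 1 (0.0973). These values do not settle whether the numbers mark pairs, and the main fit did not pair the libraries.

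The 50 called named peaks gave 941 tests over 19 alternatives. In 874 the call held, in 67 it was lost and in 0 the sign changed, and 28 of the 50 lost no call. Of the 345 peaks, 109 lower and 5 higher ones kept their call in each of the 6 leave-outs. The ratio over the 26 peaks of the control run on chromosome 5 stayed between 0.486 and 0.554. Depth limits weak sites: all tested peaks have a median of 1.2 CPM in WT Dex and the 81 higher peaks one of 3.45 CPM. A difference that was not called at a weak site was not shown to be absent.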

Other observations

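At 2 genes, picked out after their values were seen, called peaks went in opposite directions. Cd47, the "do not eat me" signal recognised by macrophages, had a lower peak on chromosome 16 starting at 49837398 (log2 -1.44 ± 0.23) and a higher one starting at 49892013 (1.01 ± 0.20). Rbl2, a pocket protein that restrains cell cycle entry, had values of 0.85 and -0.83.

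Chromosome 3 held 26 lower called peaks among 9389 tested (0.277%, against 0.130% over all chromosomes) and 1 higher. Chromosomes 19, 1 and 5 held 12 of 6020 (0.199%), 27 of 13986 (0.193%) and 24 of 12559 (0.191%) lower, and 0, 5 and 12 higher.

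The called peaks nearest the threshold were near Fth1, a ferritin chain (log2 -0.52, edgeR adjusted p = 0.0497), and Pparg (0.50, 0.0496). Those just outside it were at Tfap4 (0.66, 0.0506), Atp2b1 (-0.41, 0.0506) and Abcb1a, a drug efflux pump that also exports glucocorticoids (-1.92, 0.05 after rounding).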
